A study of Mus musculus with 8 samples.

Results

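The surface molecules that sort neutrophils by stage were followed here at the RNA level in spleen neutrophils of mice with and without the chemokine receptor Cxcr2. They were chosen by name, as the genes for the proteins Ly6G, CD101, CD24, CD63, c-Kit, CD34 and Ly6C. The 7 genes are Ly6g, Cd101, Cd24a, Cd63, Kit, Cd34 and Ly6c2, out of 55414 gene identifiers in the files and 16778 genes tested. All 7 passed the filter on low counts.

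The WT group held libraries from 4 mice of the FVB strain and the *Cxcr2-/-* group libraries from 4 mice with a germline deletion of Cxcr2, backcrossed to the same strain. All mice were 10 weeks old and kept in the same specific and opportunistic pathogen free housing. Spleen cells were enriched on CD11b and sorted as CD45+ CD11b+ Ly6G+ F4/80- cells, so Ly6G protein was itself part of the gate in both groups. The deletion is carried by every cell of the animal, not by neutrophils alone.

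Neutrophils are made from progenitors that carry c-Kit, the receptor of stem cell factor, and CD34, a sialomucin of stem and progenitor cells. Granule proteins are then made in waves as the cells mature. CD24, a small glycosylphosphatidylinositol-anchored glycoprotein, and CD63, a tetraspanin of primary granules and lysosomes, mark immature stages. Ly6G, a glycosylphosphatidylinositol-anchored protein restricted to granulocytes in the mouse, and CD101, an immunoglobulin superfamily protein that separates mature from immature Ly6G+ cells, appear late. Ly6C, encoded by Ly6c2 and its close copy Ly6c1, is shared by immature granulocytes and inflammatory monocytes.

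Each library held between 34220182 and 46233555 counts on genes. The 10 most abundant genes took 9.45% to 11.6% of these in WT and 17.0% to 19.2% in *Cxcr2-/-* libraries. Cxcr2 was at 1719 to 2252 CPM (counts relative to library size, scaled by TMM) in WT and at 12.9 to 20.7 CPM in *Cxcr2-/-* libraries, in accord with the labels. By edgeR's quasi-likelihood test, 31.3% of the tested genes had a Benjamini-Hochberg adjusted p under 0.05 together with a change of 1.5-fold or more, 15.7% in each direction (2628 genes higher and 2628 lower). Upper-quartile scaling gave 1975 higher and 3227 lower, and library totals 2051 and 2990. By the adjusted p alone, 44.7% of genes passed, 23.7% higher and 21.0% lower. The groups did not overlap in CPM for 41.6% of genes. Some libraries stood apart. Replicates 3 and 4 of the *Cxcr2-/-* group were at 247.5 and 398.6 CPM for the sum of 6 primary granule genes, against 82.7 and 81.1 CPM in replicates 1 and 2. WT replicate 2 was at 25.4 CPM for the sum of 5 dendritic cell markers, against 8.90 to 11.7 CPM in the other WT libraries.

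Ly6g, Ly6c2 and their relatives sit in a cluster of short genes on chromosome 15 and resemble each other in sequence, which decides how far their counts can be told apart. The coding sequences of Ly6c2 and Ly6c1 were 97.7% identical, while Ly6g and Ly6c2 were 78.1% identical. Ly6c2 lies at chr15:75108158-75111970 and Ly6c1 at chr15:75044018-75048830, both on the minus strand of GRCm38. The first 300 coding bases of both are shown 5′ to 3′ because they show how few positions separate them; capitals mark the 7 bases that differ.
Ly6c2: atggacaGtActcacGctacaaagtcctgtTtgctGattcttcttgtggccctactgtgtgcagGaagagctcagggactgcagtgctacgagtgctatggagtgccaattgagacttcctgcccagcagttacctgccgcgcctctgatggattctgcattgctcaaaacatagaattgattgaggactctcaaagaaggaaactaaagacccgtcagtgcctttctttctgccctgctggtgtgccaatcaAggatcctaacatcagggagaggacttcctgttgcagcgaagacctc
Ly6c1: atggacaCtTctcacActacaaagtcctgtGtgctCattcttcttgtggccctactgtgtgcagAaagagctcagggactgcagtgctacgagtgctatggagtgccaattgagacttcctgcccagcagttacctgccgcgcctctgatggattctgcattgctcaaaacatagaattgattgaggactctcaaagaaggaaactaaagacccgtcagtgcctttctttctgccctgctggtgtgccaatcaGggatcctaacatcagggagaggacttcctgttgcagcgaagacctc

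Of the 120-base windows of the longest coding transcript of Ly6c2, 10.5% were also found in Ly6c1, and none of those of Ly6g were found in another gene. Ly6c1 itself was at 0.508 to 1.28 CPM over the 8 libraries, so the counts assigned to Ly6c2 outnumbered those of its copy in all of them. For Cd63, 16.6% of windows were shared with the pseudogene Cd63-ps, and for Cd34, 1.31% with the antisense gene Gm16897. Cd101, Cd24a and Kit shared none.

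RNA of the early marker Ly6c2 and of the late marker Ly6g was higher in *Cxcr2-/-* neutrophils, while that of the late marker Cd101 was lower. Cd24a and Kit were at higher means, and Cd34 at a lower mean, in *Cxcr2-/-* libraries without passing the test. Cd63 passed it by a small margin, so that 4 of 7 markers passed by the adjusted p alone, against 44.7% of all genes. Of the 7 markers, 2 were thus called higher, against 15.7% of all genes, and 1 was called lower, against 15.7%. Of both late markers 1 rose and 1 fell, while Ly6c2, Cd24a and Cd63, used for immature stages, were all at higher means in *Cxcr2-/-* libraries. Of the markers used for immature stages only Ly6c2 was called. The median log2 fold change of all genes tested was 0.01, so a higher mean alone was common. The stage is that for which the protein is used, and Ly6G protein was part of the gate. In bulk RNA, fewer cells of a type and less RNA per cell cannot be told apart.

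**Figure D1:**
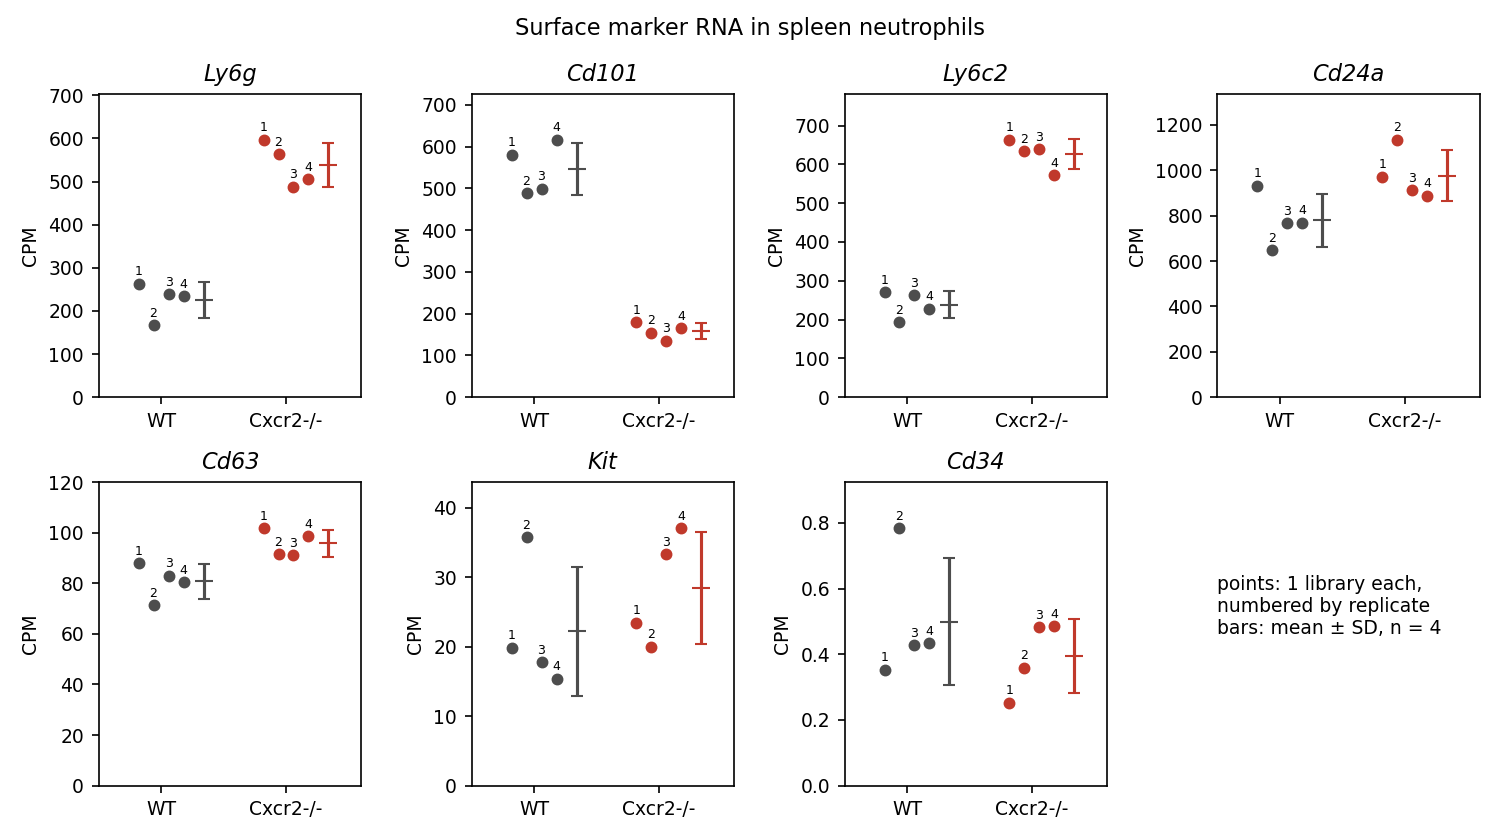
CPM of each surface marker (linear axis from 0), with 1 point for each library, numbered by replicate, and bars for the mean ± SD (n = 4). The 4 *Cxcr2-/-* points lie above all WT points for Ly6g, Ly6c2 and Cd63 and below them for Cd101, and the groups overlap for Cd24a, Kit and Cd34.

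Ly6g (ENSMUSG00000022582, chr15:75155240-75159126, plus strand) is the gene of the antigen by which the cells were gated. It was at 262.9, 166 (replicate 2), 239.6 and 234 CPM in WT replicates 1 to 4. In *Cxcr2-/-* replicates 1 to 4 it was at 597, 564, 488 and 506 CPM. The lowest *Cxcr2-/-* library was therefore well above the highest WT library. Mean levels of 226 ± 41.5 CPM (WT) and 539 ± 50.5 CPM (*Cxcr2-/-*) resulted (SD, n = 4 each), a 2.39-fold difference. The log2 fold change was 1.26 with a 95% interval of 0.96 to 1.55 (adjusted p = 1.49e-05 in edgeR's quasi-likelihood test).

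Cd101 (ENSMUSG00000086564, chr3:100993529-101029556, minus strand) moved the other way. It was at 581, 488, 499 and 616 CPM in WT replicates 1 to 4 and at 180, 154, 136 and 165 CPM in *Cxcr2-/-* replicates 1 to 4. Every *Cxcr2-/-* library was below every WT library, and the groups had similar relative spread, with coefficients of variation of 11.4% and 11.8%. The mean of 546 ± 62.4 CPM in WT was 3.44-fold that of 159 ± 18.7 CPM in *Cxcr2-/-* neutrophils (SD, n = 4 each). The log2 fold change was -1.78 with a 95% interval of -2.04 to -1.52 (adjusted p = 3.54e-07 in edgeR's quasi-likelihood test).

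Ly6c2 (ENSMUSG00000022584, located above) was at 270, 194, 263 and 228 CPM in WT replicates 1 to 4 and at 663, 634, 639 and 573 CPM in *Cxcr2-/-* replicates 1 to 4. The groups were apart by more than the range within either of them. The means were 239 ± 35.1 CPM and 627 ± 38.4 CPM (SD, n = 4 each), a 2.63-fold difference. Its log2 fold change was 1.39 with a 95% interval of 1.14 to 1.65 (adjusted p = 1.99e-06 in edgeR's quasi-likelihood test). Since Ly6C is also a monocyte antigen, the monocyte and macrophage markers were read beside it. Their sum was at 453 to 552 CPM in WT and 215 to 349 CPM in *Cxcr2-/-* libraries. Most of that sum was Csf1r, the receptor of macrophage colony-stimulating factor, at 403 to 499 CPM in WT and 190 to 269 CPM in *Cxcr2-/-* libraries. Of the 8 markers, 2 fell and 1 rose in edgeR (adjusted p under 0.05), against 21.0% and 23.7% of all genes. Those that fell were Csf1r and Adgre1, with log2 fold changes of -0.93 and -1.31. The one that rose was Ccr2, the chemokine receptor of inflammatory monocytes. It was at 7.48 and 8.85 CPM in *Cxcr2-/-* replicates 1 and 2, within the WT range of 4.34 to 9.06 CPM, and at 34.4 and 45.7 CPM in replicates 3 and 4. Cx3cr1, which did not pass, was at 3.26, 5.67, 14.5 and 11.7 CPM in *Cxcr2-/-* replicates 1 to 4, against 4.60 to 8.91 CPM in WT. Among *Cxcr2-/-* libraries the highest value of Ly6c2 was in replicate 1 and the lowest in replicate 4. The part of monocytes in the level of Ly6c2 was not tested.

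Within a library, the ratio between markers does not depend on depth or scaling. The counts of Ly6g were 0.341 to 0.480 times those of Cd101 in WT and 3.05 to 3.65 times in *Cxcr2-/-* libraries. For Ly6c2 over Cd101 the ratio was 0.369 to 0.526 in WT and 3.46 to 4.71 in *Cxcr2-/-* libraries. Cd101 thus had more counts than either Ly6 gene in all 4 WT libraries and fewer in all 4 *Cxcr2-/-* libraries. The ratio of Ly6g to Ly6c2 was nearly the same in both groups, at 0.858 to 1.03 in WT and 0.764 to 0.900 in *Cxcr2-/-* libraries, and these ranges overlapped.

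**Figure D2:**
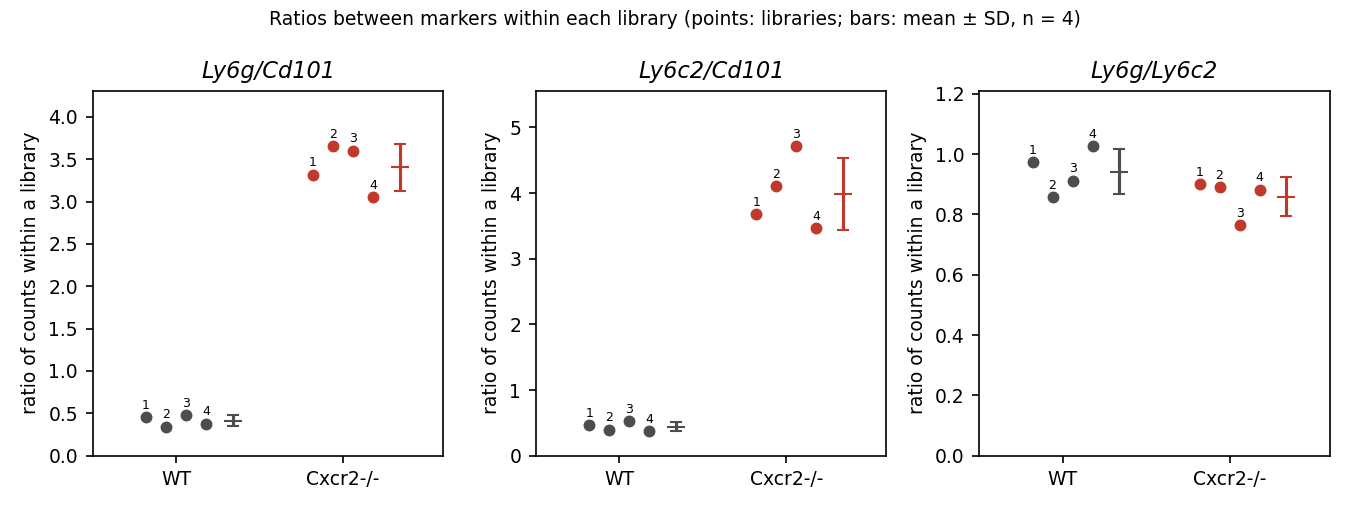
Ratios of counts within each library (linear axes from 0), with 1 point for each library, numbered by replicate, and bars for the mean ± SD (n = 4). Ly6g over Cd101 and Ly6c2 over Cd101 are below 0.6 in WT and above 3 in *Cxcr2-/-* libraries, while Ly6g over Ly6c2 overlaps between the groups.

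Cd24a (ENSMUSG00000047139, chr10:43578284-43584265, plus strand) was the most abundant of the markers in CPM. It was at 932, 649, 766 and 769 CPM in WT replicates 1 to 4 and at 972, 1134, 912 and 888 CPM in *Cxcr2-/-* replicates 1 to 4. The highest WT library lay within the *Cxcr2-/-* range. The log2 fold change was 0.33 with a 95% interval of 0.05 to 0.60, and it did not pass after adjustment (adjusted p = 0.0538 in edgeR's quasi-likelihood test). It passed only without WT replicate 1, at 0.43 (adjusted p = 0.0179 by the same edgeR test). CD24 is also a B cell antigen. The summed B cell markers were at 32.9 to 73.3 CPM in WT and at 16.0 to 37.7 CPM in *Cxcr2-/-* libraries. In the same test 5 of the 7 fell, against 21.0% of all genes. The part of B cells in the level of Cd24a was not tested.

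Cd63 (ENSMUSG00000025351, chr10:128900989-128912822, plus strand) was at 88.1, 71.4, 83.0 and 80.4 CPM in WT replicates 1 to 4. In *Cxcr2-/-* replicates 1 to 4 it was at 102, 91.6, 91.1 and 98.6 CPM. The groups did not overlap but lay close together, and the log2 fold change was 0.25 with a 95% interval of 0.05 to 0.44 (adjusted p = 0.0395 in edgeR's quasi-likelihood test). This is a 1.19-fold difference, under the 1.5-fold threshold. The adjusted p rose above 0.05 in most of the other fits, reaching 0.261 with upper-quartile scaling and 0.170 without WT replicate 2 by edgeR's quasi-likelihood test. Leaving out any library but WT replicate 1 or *Cxcr2-/-* replicate 2 also ended it.

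Kit (ENSMUSG00000005672, chr5:75574916-75656722, plus strand) was at 19.9, 35.8, 17.8 and 15.4 CPM in WT replicates 1 to 4 and at 23.5, 20.0, 33.4 and 37.1 CPM in *Cxcr2-/-* replicates 1 to 4. In each group the libraries were spread by about 2-fold, and WT replicate 2 lay between the 2 highest *Cxcr2-/-* libraries. The log2 fold change was 0.36 with a 95% interval of -0.19 to 0.91 (adjusted p = 0.279 in edgeR's quasi-likelihood test). Without WT replicate 2 it was 0.67 (adjusted p = 0.0219 in edgeR's quasi-likelihood test), which would have called Kit higher.

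The libraries with high Kit differed in what else was high in them. Among *Cxcr2-/-* libraries, replicates 3 and 4 had the highest Kit and also the highest primary granule genes. Mpo, which encodes myeloperoxidase, was at 19.1, 20.2, 81.2 and 146 CPM in *Cxcr2-/-* replicates 1 to 4. The erythroid gene Hba-a1, at 4.02 and 5.27 CPM in replicates 3 and 4 against 0.531 and 0.415 CPM in replicates 1 and 2, and Ccr2 showed the same split. WT replicate 2, in contrast, was at 12.4 CPM for the primary granule sum, within the WT range of 9.66 to 22.2 CPM. It had the highest WT values of Flt3, the receptor of a progenitor and dendritic cell growth factor, at 10.2 CPM against 1.27 to 3.01 CPM, and of Zbtb46, a conventional dendritic cell transcription factor, at 13.2 CPM against 3.50 to 5.77 CPM. The same held for the macrophage gene C1qa, at 5.79 CPM against 0.058 to 1.58 CPM, and for Cd4, at 14.1 CPM against 1.27 to 5.17 CPM. Its sums of monocyte and macrophage markers (494 CPM) and of T and NK cell markers (99.8 CPM) were not the highest in WT. Nor were its Csf1r, Cx3cr1 and Ccr2, at 425, 5.85 and 8.94 CPM. Its sum of B cell markers (32.9 CPM) was the lowest in WT. The dendritic cell markers summed to 6.04 to 8.19 CPM in *Cxcr2-/-* libraries, and 2 of the 4 tested fell, against 21.0% of all genes. Kit also marks mast cells, whose 6 markers together with those of basophils summed to 0.231 to 0.796 CPM in WT and 0.632 to 0.996 CPM in *Cxcr2-/-* libraries, with Mcpt8, Fcer1a and Prss34 at 0 in all WT libraries. Ms4a2, the only one of them tested, rose from a mean of 0.161 CPM (WT) to 0.440 CPM (*Cxcr2-/-*) (log2 fold change 1.45, adjusted p = 0.0384 in edgeR). The part of the other cell types in the level of Kit was not tested.

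**Figure D3:**
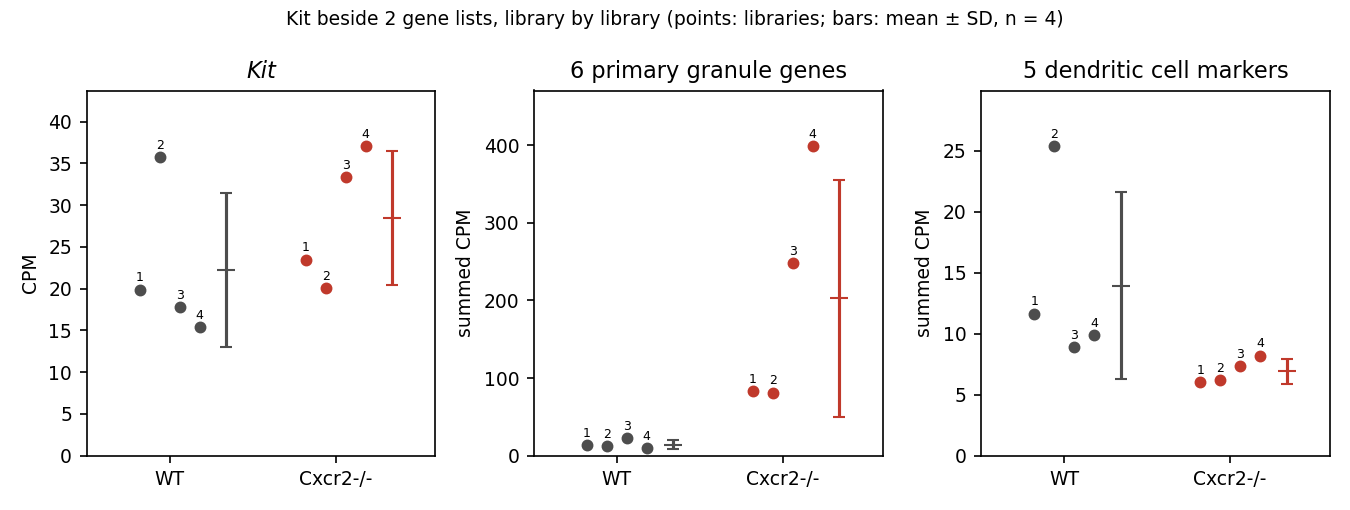
Kit in CPM, the summed CPM of 6 primary granule genes and the summed CPM of 5 dendritic cell markers (linear axes from 0), with 1 point for each library, numbered by replicate, and bars for the mean ± SD (n = 4). Replicates 3 and 4 of the *Cxcr2-/-* group are highest within that group in all panels, and WT replicate 2 is highest among WT libraries for Kit and the dendritic cell markers but not for the primary granule genes.

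Cd34 (ENSMUSG00000016494, chr1:194938819-194961279, plus strand) had few counts. Its counts were 16, 39, 16 and 15 in WT replicates 1 to 4 and 10, 13, 19 and 20 in *Cxcr2-/-* replicates 1 to 4, or 0.253 to 0.784 CPM in all. WT replicate 2 was highest, as for Kit, and the groups overlapped. The log2 fold change was -0.34 with a 95% interval of -1.18 to 0.49 (adjusted p = 0.499 in edgeR's quasi-likelihood test), an interval that includes a 2-fold decrease. An antisense gene, Gm16897, overlaps Cd34, and the strand setting of the counting is not given in the sources used here.

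**Figure D4:**
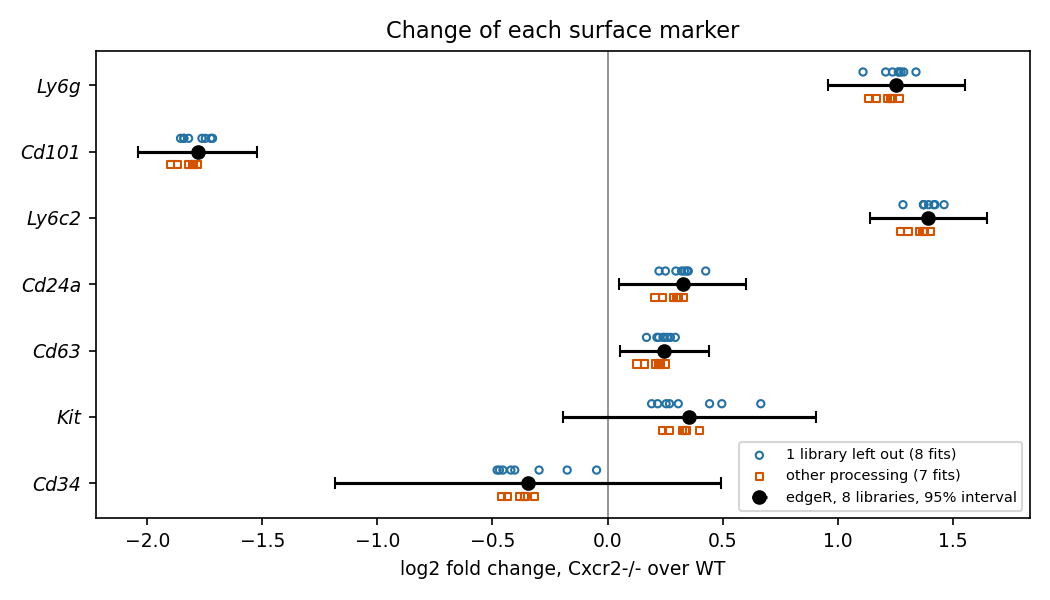
Log2 fold change of each surface marker, *Cxcr2-/-* over WT. Black points and bars are edgeR's estimate from 8 libraries with its 95% interval, circles are the 8 fits with 1 library left out and squares the 7 other processing choices; Ly6g, Ly6c2 and Cd101 stay on their side of 0 and far from it, while the intervals of Kit and Cd34 include 0.

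Levels of different genes can be compared only per length. By CPM per kilobase of exons, the WT order was Cd24a at 302 ± 45.1, Ly6g at 239.5 ± 44.1, Cd101 at 164 ± 18.7, Ly6c2 at 87.1 ± 12.8, Cd63 at 21.9 ± 1.90, Kit at 2.49 ± 1.04 and Cd34 at 0.069 ± 0.026 (SD, n = 4). The WT ranges of Cd24a and Ly6g overlapped, as did those of Ly6g and Cd101. Within each WT library, however, Cd24a was above Ly6g and Ly6g above Cd101. In *Cxcr2-/-* neutrophils the order was Ly6g at 572 ± 53.6, Cd24a at 379 ± 42.9, Ly6c2 at 229 ± 14.0, Cd101 at 47.7 ± 5.62, Cd63 at 26.0 ± 1.43, Kit at 3.20 ± 0.903 and Cd34 at 0.054 ± 0.015 (SD, n = 4), with no overlap between neighbours on this scale. By this length Cd101 stood above Ly6c2 in WT and below it in *Cxcr2-/-* neutrophils. The exons of Ly6c2 together held 2740 bases and its longest coding transcript 822. By the longest coding transcript, a choice made after seeing the data, Ly6c2 was at 290 CPM per kilobase in WT and 763 in *Cxcr2-/-* neutrophils. These means were above those of Ly6g and Cd101 in both groups. The WT ranges of Ly6c2 and Ly6g overlapped on that scale (236 to 328 and 177 to 279), and the *Cxcr2-/-* ranges did not. Within each WT library Ly6c2 was above Ly6g on that scale. By that length Cd63 in *Cxcr2-/-* neutrophils, at 86.3, was above Cd101, at 48.2, and Cd24a (489 to 624) overlapped with Ly6g (519 to 634), so the order depends on the length used.

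The promoters of the 3 markers that passed both thresholds are shown, as Ly6g and Ly6c2 rose together and Cd101 fell. They are the 250 bases before a RefSeq start site (GRCm38.p6), 5′ to 3′ on the strand of the gene, and capitals mark GAGGAA, the core bound by the myeloid factor PU.1, or its reverse complement TTCCTC. The windows are chr15:75155079-75155328 for Ly6g, chr15:75111972-75112221 for Ly6c2 and chr3:101029554-101029803 for Cd101. For Ly6g and Ly6c2, each with 2 start sites in RefSeq, the most alike pair is given.
Ly6g: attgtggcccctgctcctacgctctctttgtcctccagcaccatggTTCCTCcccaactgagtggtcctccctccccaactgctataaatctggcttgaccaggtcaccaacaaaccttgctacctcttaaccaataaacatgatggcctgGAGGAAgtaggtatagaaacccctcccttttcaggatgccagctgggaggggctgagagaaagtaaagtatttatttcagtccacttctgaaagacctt
Ly6c2: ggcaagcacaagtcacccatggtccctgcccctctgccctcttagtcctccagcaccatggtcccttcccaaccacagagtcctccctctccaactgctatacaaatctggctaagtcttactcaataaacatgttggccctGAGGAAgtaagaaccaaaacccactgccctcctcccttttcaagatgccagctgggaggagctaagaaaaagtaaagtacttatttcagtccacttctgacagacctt
Cd101: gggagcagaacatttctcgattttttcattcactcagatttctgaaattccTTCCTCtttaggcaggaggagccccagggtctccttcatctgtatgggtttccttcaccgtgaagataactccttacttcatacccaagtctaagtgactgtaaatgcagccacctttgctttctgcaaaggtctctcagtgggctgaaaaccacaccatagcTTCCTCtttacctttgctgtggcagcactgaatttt

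Over their 300-base windows, which run 50 bases past the start site, Ly6g and Ly6c2 were 72.5% identical in alignment, and Cd101 and Ly6c2 48.8%. These are the most alike pairs of start sites. The other pairs were at 45.4% to 64.4% for Ly6g and at 47.0% for Cd101. A GAGGAA on either strand was in the windows of Ly6g, Ly6c2, Cd101, Kit and Cd63 and in 28.3% of all 32851 RefSeq mouse promoters of that length. TTGCNNA, part of the C/EBP site and searched on both strands, was in the Cd101 window and in 1 of the 2 Ly6g windows, against 37.1% of all promoters. The RUNX core TGTGGT was in the Cd101 window and both Ly6c2 windows (16.8% of all promoters), the GATA core AGATAA in that of Cd101 (11.2%) and the MYB core TAACNG in that of Cd34 (23.3%). The AP-1 site TGANTCA was in none (7.81%), and no 2 of the matches overlapped. Cd24a was not searched. Both genes with the same direction and the gene with the opposite direction held GAGGAA, so the letters did not separate them. A match is a description of the sequence, and binding was not measured.

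Other genes of the same stages were read from lists. All 8 proliferation genes rose, with a median log2 fold change of 1.97 against 0.01 over all genes tested, and 23.7% of all genes rose by the adjusted p alone. Mki67, which encodes the Ki-67 antigen of cycling cells, had a log2 fold change of 1.41 and the topoisomerase gene Top2a one of 1.91. All 6 primary granule genes rose, with a median of 4.72, among them Mpo at 4.58 and Elane, neutrophil elastase, at 5.15. All 6 secondary granule genes rose too, with a median of 1.31, close to the 1.26 of Ly6g and the 1.39 of Ly6c2. Ltf, which encodes lactoferrin, was at 1.28 and Ngp, neutrophilic granule protein, at 1.33. Of the 5 gelatinase granule genes, 4 rose and Slpi, a protease inhibitor at -0.05 (adjusted p = 0.754 in edgeR's quasi-likelihood test), did not pass, with a median of 0.50.

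**Figure D5:**
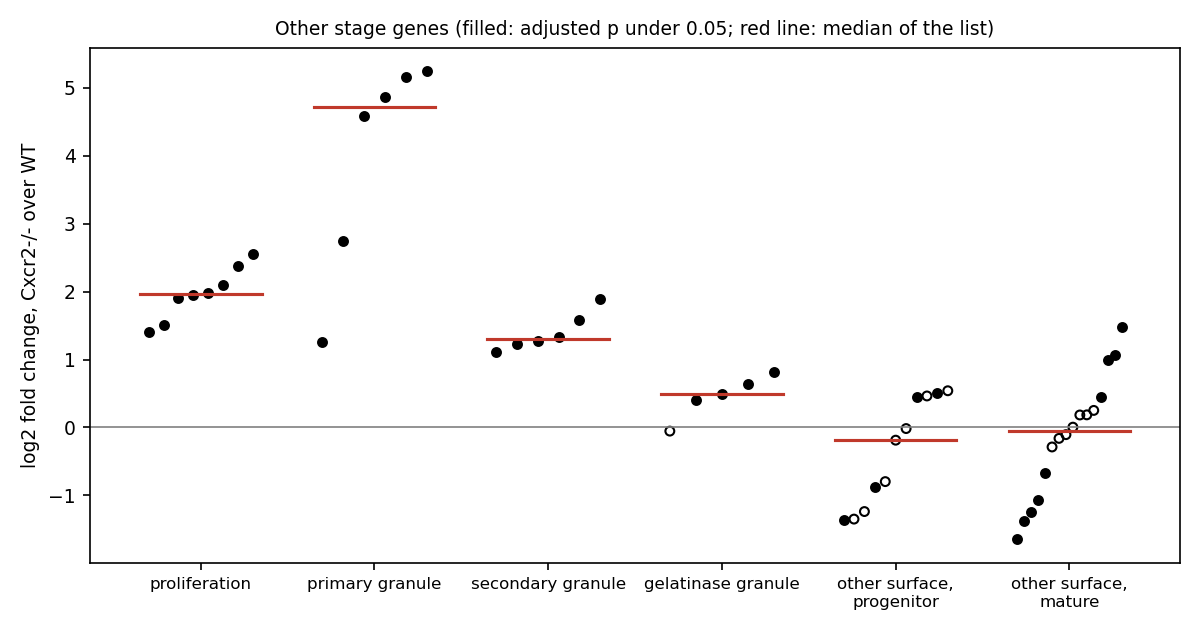
Log2 fold change, *Cxcr2-/-* over WT, of each gene in 6 lists, with filled points for an adjusted p under 0.05 (edgeR), open points for the others and a red line at the median of each list. The medians are 1.97, 4.72, 1.31 and 0.50 for the proliferation and the 3 granule lists and -0.19 and -0.05 for the lists of other surface molecules, whose genes lie on both sides of 0.

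Unlike the granule genes, other surface molecules did not share a direction. Of 11 further molecules used on progenitors and early stages, 2 rose and 2 fell (median -0.19), against 23.7% and 21.0% of all genes. Cxcr4, the receptor that retains neutrophils in marrow, fell from 555 to 737 CPM in WT to 305 to 394 CPM in *Cxcr2-/-* libraries (log2 fold change -0.88, adjusted p = 7.02e-05 in edgeR). Itga4, an integrin of early cells, fell with a log2 fold change of -1.36, whereas the tetraspanin gene Cd81 rose by 0.45. Of 16 molecules of late stages, 4 rose and 5 fell (median -0.05), shares near the 23.7% and 21.0% of all genes. Csf3r, the receptor of granulocyte colony-stimulating factor, was at 6504 to 7470 CPM in WT and at 3164 to 3513 CPM in *Cxcr2-/-* libraries. Trem1 and the lectin gene Clec4d, which encode activating receptors, had log2 fold changes of -1.65 and -1.38 and thus fell. Cd177, which encodes a neutrophil surface protein held in secondary granules, rose with a log2 fold change of 1.49, as did Ceacam1 with 1.06 and the formyl peptide receptor gene Fpr2 with 0.99.

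Relatives of the markers in sequence were read in the same way. Of 14 other genes of the Ly6 family found in the annotation, 6 passed the filter on low counts. None rose, against 23.7% of all genes, and 1 fell, against 21.0%. That gene, Lynx1, was at means of 1.03 CPM (WT) and 0.391 CPM (*Cxcr2-/-*) (log2 fold change -1.39, adjusted p = 0.0264 in edgeR). It no longer passed without WT replicate 1 or 3 or *Cxcr2-/-* replicate 1, 2 or 3 (highest adjusted p = 0.105 in edgeR). Ly6e was the most abundant of them, at 85.0 to 120 CPM in WT and 71.8 to 151 CPM in *Cxcr2-/-* libraries (log2 fold change 0.12, adjusted p = 0.645 in edgeR). Of 12 tetraspanin genes besides Cd63, 5 rose and 4 fell, against 23.7% and 21.0% of all genes. Tspan13 fell with a log2 fold change of -1.19 and Cd82 with -0.54, while Tspan32 rose by 0.73.

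Among the 7502 genes that averaged at least 3 on the log2 CPM scale, those with the smallest root mean square difference from a marker in mean-centred log2 CPM over the 8 libraries were found. For Ly6g these were Idh1, Ceacam10 and Cldn15 (0.10 for each), and for Ly6c2 Ethe1, Snx1 and Mpst (0.04, 0.08 and 0.08). For Cd101 they were Nlrp1b, Csad and Slain1 (0.09, 0.09 and 0.12). The genes nearest to Cd24a were Yaf2, Arpc5 and Clec5a, and those nearest to Cd63 were Cars2, Rtn3 and Mtfr1l, all within 0.07. Kit had no such close match, with Mink1 at 0.13 and Ddhd1 and Ubfd1 at 0.21 and 0.22, and for Cd34 Tra2b, Rsl1d1 and Mat2a were at 0.16 to 0.19. This measure is a description over 8 libraries that share 2 groups.

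Markers of the remaining cell types were read as well. For the counts that follow, 23.7% of all genes rose and 21.0% fell by the adjusted p alone. The T and NK cell markers summed to 99.8 to 119 CPM in WT and 92.5 to 140 CPM in *Cxcr2-/-* libraries, nearly all from Cd3d, at 80.1 to 110 CPM in WT and 87.3 to 136 CPM in *Cxcr2-/-* libraries. Cd3e, below the filter, was at means of 0.206 CPM (WT) and 0.094 CPM (*Cxcr2-/-*), and Cd3g at 0.937 and 0.753 CPM. Of the 6 tested 1 fell, Cd4, at means of 6.16 CPM (WT) and 1.34 CPM (*Cxcr2-/-*) (log2 fold change -2.20, adjusted p = 0.0075 in edgeR). The erythroid, platelet and endothelial sums were at most 10.3 CPM in any library, and Emcn, an endothelial marker, was at 0 in all. Of 2 platelet markers tested 1 fell, Itga2b (log2 fold change -0.56). Of 2 endothelial markers tested 1 rose, Egfl7 (1.42), and none of the 3 erythroid markers tested passed. Egfl7 overlapped between the groups, at 1.39 to 2.40 CPM in WT and 1.77 to 7.81 CPM in *Cxcr2-/-* libraries. The endothelial sum was at 10.3, 8.25, 3.96 and 3.91 CPM in *Cxcr2-/-* replicates 1 to 4, against 3.74 to 4.74 CPM in WT. Eosinophil markers summed to 48.8 to 69.2 CPM in WT and 37.8 to 64.4 CPM in *Cxcr2-/-* libraries, most of it from Siglecf. Of the 4 tested, 2 fell and 2 rose, the latter being the eosinophil granule genes Epx and Prg2 with log2 fold changes of 2.78 and 2.87. Prg2 was at 5.06, 2.63, 11.0 and 16.3 CPM in *Cxcr2-/-* replicates 1 to 4, highest in the libraries with the highest Kit. Stem and progenitor markers summed to 33.7 to 39.2 CPM in WT and 57.4 to 71.2 CPM in *Cxcr2-/-* libraries, most of it from Erg. Of the 3 tested, Erg alone rose (log2 fold change 0.88, adjusted p = 1.86e-05 in edgeR). It was at 31.1 to 36.6 CPM in WT and 53.4 to 67.8 CPM in *Cxcr2-/-* libraries. Mecom was below the filter on low counts, at no more than 0.134 CPM in WT and at 0 in all *Cxcr2-/-* libraries. The 6 neutrophil markers summed to 32610 to 45389 CPM in WT and 64693 to 78160 CPM in *Cxcr2-/-* libraries. S100a8 and S100a9 made up most of that sum. Of the 6 markers, 3 rose, 2 fell and 1 did not pass, and those that fell were Csf3r and Ptprc, which encodes CD45, with log2 fold changes of -1.06 and -0.77.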

How the data were processed

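RNA of sorted spleen neutrophils in 4 WT and 4 *Cxcr2-/-* libraries was sequenced in pairs after ribosomal RNA depletion. Per the labels and the study's methods, the authors trimmed the reads, aligned them with STAR to mm10 and counted pairs per gene with HTSeq, and the deposited values are raw counts, 1 table per library. Versions, the strand setting and the annotation release are not given in the sources used here. Of 55414 identifiers, 52081 matched GENCODE M21 (GRCm38), which gave symbols and coordinates. Rows that name no gene (42.4% to 53.6% of the total) were left out. The no-feature row held 31.4% to 41.5% in WT and 26.7% to 31.9% in *Cxcr2-/-* libraries.

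Counts were scaled by TMM, filtered with filterByExpr and tested over all genes with edgeR 4.0.16 (quasi-likelihood, 2-sided, Benjamini-Hochberg) in R 4.3.3. A call needed an adjusted p under 0.05 and a 1.5-fold change; "rose" and "fell" of single genes mean the adjusted p alone. Alternatives were DESeq2 1.42.0, other scalings and filters, the replicate number as a block and leaving out each library. The scripts were tested on simulated counts. Members and lists were chosen with earlier results of these data known. Named genes are the 7 members, genes of the lists, the 3 genes nearest to each member in log2 CPM (prior count 2) and Cxcr2; Gm16897 and Cd63-ps were named for shared sequence. Sequence identity came from global alignment in Biopython 1.88. Replicates were separate animals per the study's text. A gene of the surface lists is not reported here by name.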

Additional observations from a re-analysis of the deposited data

Results flagged for a closer look

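In 6 of 164 groups of 4 libraries, 1 library lay farther from the other 3 than Dixon's 95% limit; chance flags about 1 group in 20. The dendritic cell markers summed to 25.4 CPM in WT replicate 2, against 8.90 to 11.7 CPM in the others. The count ratio of Kit to Ly6g was 0.215 in that library, against 0.0658 to 0.0756 in the other WT libraries, and its Clec4d was at 349 CPM, against 402 to 412 CPM. The ratio of Ly6g to Ly6c2 was 0.764 in *Cxcr2-/-* replicate 3, against 0.883 to 0.900 in the others. Top2a was at 47.4 CPM in WT replicate 4, against 58.7 to 60.1 CPM, and at 245 CPM in *Cxcr2-/-* replicate 2, against 197 to 205 CPM.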

How the results depend on the processing

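Ly6g, Ly6c2 and Cd101 kept direction and call in all 15 refits. Their log2 fold changes were 1.11 to 1.34, 1.28 to 1.46 and -1.86 to -1.72 with a library left out, and 1.14 to 1.27, 1.27 to 1.40 and -1.90 to -1.78 under the other settings. Cd63 lost its adjusted p under 0.05 with DESeq2 (0.23), RLE scaling (0.22), upper-quartile scaling (0.13), library totals (0.16), no filter on low counts (0.23) and at least 10 counts in every library (0.21), and ranged from 0.17 to 0.29 with a library left out. Over the same left-out libraries Cd24a ranged from 0.22 to 0.43, Kit from 0.19 to 0.67 and Cd34 from -0.48 to -0.05, and the markers called higher were 2 to 3. The cause of these moves was not tested. Ly6e and Slpi changed sign with a library left out, ranging from -0.0258 to 0.31 and from -0.17 to 0.0331. Of 718 values of other named genes under these settings, 676 kept direction and side of the threshold, 28 no longer passed, 10 passed newly and 4 changed sign. Over all genes, 2628 were called higher and 2628 lower; without the fold threshold 3969 were higher, and with a 2-fold threshold 1255 were higher and 1599 lower. Upper-quartile scaling moved the median of all genes by -0.12 and gave 1975 higher and 3227 lower, and library totals gave 2051 and 2990. Deviations of same-numbered WT and *Cxcr2-/-* libraries correlated at 0.12, -0.19, 0.16 and -0.26, so the numbers were not taken to pair libraries; a fit with the replicate block gave Cd63 an adjusted p of 0.0398 in edgeR, changed no call of a marker, gave Ccr2 a log2 fold change of 1.33 that no longer passed (adjusted p = 0.0592 in edgeR), and called 2470 genes higher and 2518 lower. Not every library correlated best with its own number. Levels per kilobase moved with the length used for Kit, Cd34, Cd24a, Cd63 and Ly6c2. With 10 to 39 counts of Cd34 per library, small changes of that gene were not detectable at this depth.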
